A study of Homo sapiens with 6 samples.

Results

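The 31 genes described here are established transcriptional targets of p53, chosen by name from the gene table. All 31 names were found, each in 1 row, among 58174 genes in the table. RNA was sequenced from PC9, an established human lung adenocarcinoma cell line, in 6 libraries. In 3 libraries the cells had received an antagomir, a modified antisense oligonucleotide that blocks a small RNA, against tsRNA-5001a, a fragment of a transfer RNA. These are called knockdown below. In the 3 control libraries the cells had received the negative control antagomir. No source used here gives the dose or the time, or says that replicates were separate cultures, so the p-values reflect spread among libraries that may be technical only. The tsRNA is not measured by gene counts, so its knockdown was not checked. The comparison asks which of these genes differed between the 2 groups.

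The p53 protein is a transcription factor that is stabilised by DNA damage and other stress. It then binds DNA through a response element made of a pair of similar boxes and switches on genes for cell cycle arrest, DNA repair, metabolism and cell death, together with MDM2, the ubiquitin ligase that destroys p53.

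Several of the genes carry a recognisable p53 element beside a transcription start, and the sequences are shown because p53 acts on its direct targets through them. RefSeq promoter windows on GRCh38 (250 bases before to 50 after a start) were present for 26 of the 31 genes. They were searched for the p53 response element consensus, taken as 2 boxes of 10 bases, 0 to 13 bases apart, with the invariant C and G of each box required and at most 2 mismatches elsewhere. The consensus is its own reverse complement, so 1 search covers both strands. A match was found for 5 of the 26 genes (19.2%), against 3.62% of all 27305 genes with a window. With 3 mismatches allowed it was 11 of 26 (42.3%) against 15.3%. In the sequences below, written 5′ to 3′ on the strand of the gene, capitals mark the matched element.
DDB2: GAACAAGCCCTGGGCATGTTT
FAS: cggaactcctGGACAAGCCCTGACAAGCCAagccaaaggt
AEN: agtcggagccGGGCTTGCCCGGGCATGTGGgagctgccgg
FDXR: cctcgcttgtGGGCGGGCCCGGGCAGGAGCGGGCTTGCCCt
MDM2: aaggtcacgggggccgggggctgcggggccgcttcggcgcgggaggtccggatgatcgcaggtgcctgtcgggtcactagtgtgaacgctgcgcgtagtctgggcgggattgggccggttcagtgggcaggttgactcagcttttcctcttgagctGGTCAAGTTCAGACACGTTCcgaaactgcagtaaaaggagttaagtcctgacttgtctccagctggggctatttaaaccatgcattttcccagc
PMAIP1: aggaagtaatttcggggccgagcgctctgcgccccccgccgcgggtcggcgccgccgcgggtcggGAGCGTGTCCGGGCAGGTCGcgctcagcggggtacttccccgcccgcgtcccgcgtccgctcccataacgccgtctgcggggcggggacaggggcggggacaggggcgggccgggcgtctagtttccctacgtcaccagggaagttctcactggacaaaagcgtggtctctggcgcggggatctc
The DDB2 element had 0 mismatches and 1 base between its boxes, and began 5 bases after the start (chr11:47214979-47214999, plus strand). The FAS stretch lies at chr10:88991299-88991338 (plus strand) and that of AEN at chr15:88621296-88621335 (plus strand), each with 2 mismatches. The FDXR stretch, at chr17:74872995-74873035 on the minus strand, had 2 mismatches and boxes 10 bases apart. For MDM2 and PMAIP1, whose values are compared below, the 250 bases before the start are given. They lie at chr12:68808767-68809016 and chr18:59899746-59899995, both on the plus strand. The MDM2 window belongs to one of its downstream starts, and its element had 2 mismatches. The PMAIP1 element had 3 mismatches. A match of letters is not a measurement of binding.

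Library totals ran from 32342017 to 40066223 counts in the knockdown and from 34623672 to 39615278 in the control. The top 10 genes took 6.79% to 7.79% and 7.51% to 9.02% of counts. Epithelial markers (EPCAM, CDH1, EGFR, MUC1 and 4 keratins) summed to 11094 to 14119 CPM in the knockdown and 13076 to 14489 in the control. CPM here is a gene's count divided by its library's total after TMM scaling, in the customary unit. The lung lineage markers NKX2-1, NAPSA, SFTPB and SFTPC summed to at most 2.96 CPM in any library, and the surfactant genes SFTPB and SFTPC had 0 to 4 counts. Markers of other cells were low, at 4.89 to 5.71 against 3.98 to 4.43 CPM for 4 immune genes, 31.3 to 40.6 against 20.7 to 37.3 for 3 endothelial genes and 41.1 to 61.0 against 40.1 to 47.0 for 5 fibroblast genes. The red cell gene HBB had 0 counts in all 6 libraries, while HBA1 was at 1.85 to 3.91 CPM against 0 to 0.0267. PDGFRB and HBA1 were the only markers past the test. The part of these markers in the results below was not tested. In bulk RNA, fewer cells expressing a gene and less of its RNA per cell cannot be told apart.

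Knockdown library 2 stood apart for these genes. It was the highest of the 3 knockdown libraries for 19 of 29 tested genes and the lowest for 8. Its difference from knockdown libraries 1 and 3 followed the GC content of the transcript, with a Pearson r of -0.81 across the 29 genes. The genes share the libraries and are not independent replicates, so this is a description. Across all tested genes the same r was -0.47 for knockdown library 2, 0.39 for knockdown library 1 and 0.13 for library 3, against -0.05 to 0.03 in the controls. Of 17 target genes below the median GC content of tested genes (49.4%), knockdown library 2 was the highest for 16, and of the 12 above it the lowest for 8. Fold changes without this library are therefore given beside those that it moves by over 1.5 times.

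**Figure D1:**
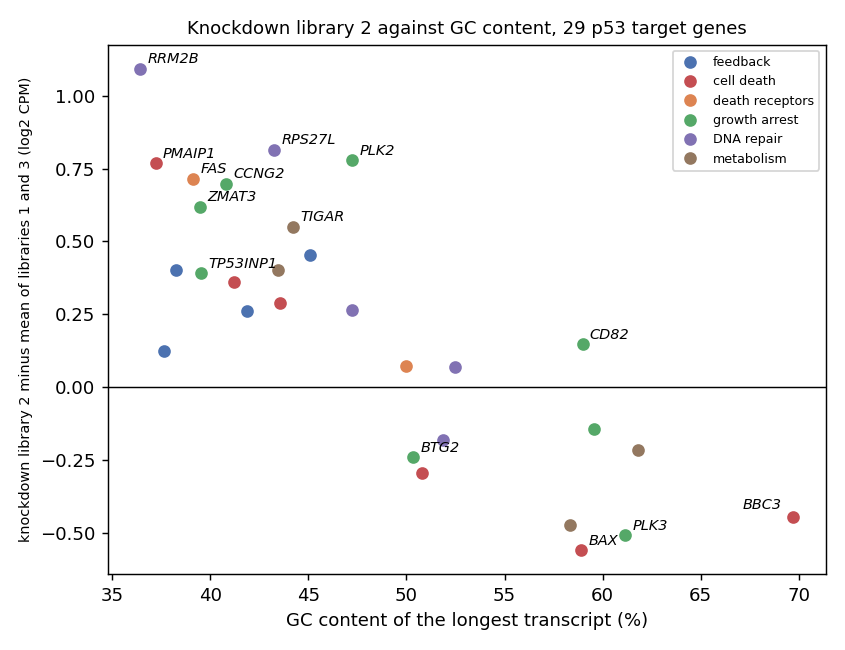
Log2 CPM of knockdown library 2 minus the mean of knockdown libraries 1 and 3, plotted against the GC content of the longest transcript for 29 p53 target genes (1 point per gene, coloured by role). Points run from RRM2B, lowest in GC content and highest in library 2, down to BAX, PLK3 and BBC3 (r = -0.81).

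None of the 31 p53 target genes passed the edgeR test of knockdown against control. Of the 31 genes, 29 had enough counts to be tested and 0 passed a Benjamini-Hochberg adjusted p of 0.05 with edgeR's quasi-likelihood test, in which 1.17% of all 19040 genes passed, 1.10% higher and 0.0735% lower. limma-voom also gave 0. DESeq2 gave 1, PMAIP1, which was higher, where 3.69% of all genes passed and 2.54% were higher. Without adjustment, p was under 0.05 for 4 genes, all higher in the knockdown (13.8% of 29), against 9.77% of all genes, and for 0 lower genes, against 6.71%. The 4 were PMAIP1, TP53INP1, CD82 and BTG2. Libraries of the groups did not overlap for 5 genes, all higher (17.2%, against 13.4% of all genes), and for 0 in the other direction, against 10.8%. In either direction 24.3% of all genes had separate groups. The fifth was TNFRSF10B.

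The median log2 fold change over the 29 genes was 0.10, beside 0.05 over all tested genes. The fitted value was above 0 for 20 of 29 (69.0%), beside 55.9% of all genes. For 18 of the 29 the fold change was smaller than its own standard error, and standard errors ran from 0.11 to 0.31. Relative to the control mean, the median of the 29 genes was -0.04, 0.29 and 0.00 log2 CPM in knockdown libraries 1, 2 and 3. The median was thus near 0 in libraries 1 and 3. Without library 2 the median was -0.03, with 13 of 29 genes above 0.

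**Figure D2:**
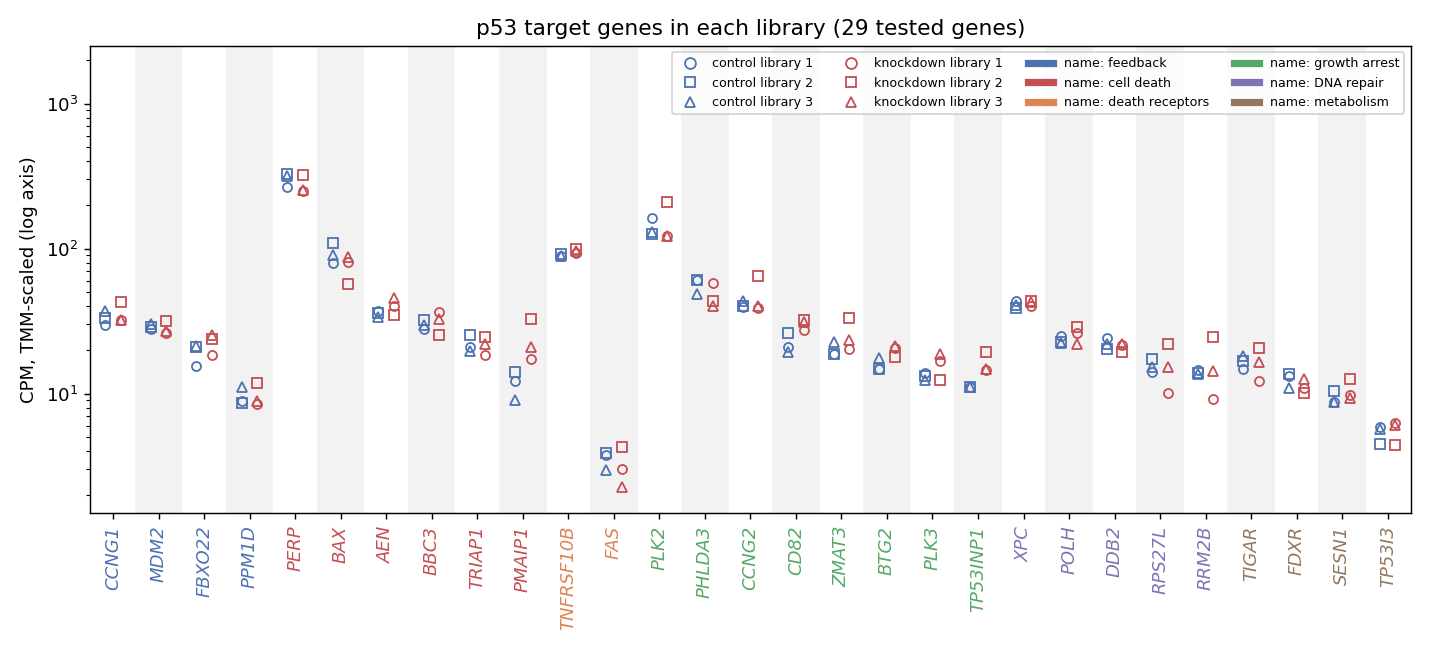
CPM of the 29 tested p53 target genes in each library on a log axis (blue, control; red, knockdown; circle, square and triangle, libraries 1, 2 and 3), with names coloured by role. The groups overlap for 24 genes, and the red square of library 2 is the highest knockdown point for 19 of the 29 genes.

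The cell death genes were led by PMAIP1 (ENSG00000141682; chromosome 18, 59899948 to 59904306, plus strand), which encodes NOXA, a BH3-only protein that neutralises the survival protein MCL1. It was at 17.4, 32.5 and 20.9 CPM in the knockdown and 12.2, 14.1 and 9.01 in the controls. Every knockdown library was above every control library, and library 2 was the highest. The means of 23.6 ± 7.91 and 11.8 ± 2.56 CPM (SD, n = 3 each) gave a log2 fold change of 1.01 (standard error, SE, 0.26; edgeR p 0.00455 before and 0.132 after adjustment). The gene was thus about 2.01-fold higher without passing the threshold. DESeq2 gave an adjusted p of 0.011, and removal of GC and length trends from the edgeR fit gave 0.84 (adjusted p 0.0479), where 2.10% of all genes were called higher and 1.36% lower. Without knockdown library 2 the log2 fold change was 0.69 (edgeR adjusted p 0.203). Over 16 alternative settings the adjusted p ran from 0.011 to 0.333 and the log2 fold change from 0.69 to 1.15.

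The 2 other BCL2 family genes of the list had smaller fold changes, and neither passed. BAX (ENSG00000087088; chromosome 19, 48954815 to 48961798, plus strand), the pore-forming effector, was at 81.2, 57.2 and 87.5 CPM in the knockdown and 79.6, 108 and 91.0 in the control. The groups overlapped, and knockdown library 2 was the lowest of all 6. The log2 fold change was -0.31 (SE 0.19, edgeR adjusted p 0.458), and -0.15 without that library. BBC3 (ENSG00000105327; chromosome 19, 47220822 to 47232766, minus strand), which encodes the BH3-only protein PUMA, was at 36.4, 25.3 and 32.6 CPM against 28.0, 32.4 and 29.7. These also overlapped, with a log2 fold change of 0.07 (SE 0.17, edgeR adjusted p 0.876) that was 0.19 without knockdown library 2. Differences between these genes in their response were not tested.

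Of the other cell death genes, PERP, a membrane protein of desmosomes, had the third highest level per length of the 29, with a mean of 114 TPM. It was at 249, 324 and 254 CPM in the knockdown and 267, 326 and 316 in the control, with a log2 fold change of -0.14 (SE 0.14, edgeR adjusted p 0.674) that was -0.28 without knockdown library 2. AEN, an exonuclease induced in apoptosis, had a log2 fold change of 0.18, and TRIAP1, a small inhibitor of apoptosis, one of -0.02, or -0.13 without that library. All 3 overlapped between groups. Among the 6 cell death genes 3 values were above 0 and 3 below.

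The genes that act back on p53 overlapped between the groups, and 0 of the 4 passed. MDM2 (ENSG00000135679; chromosome 12, 68808176 to 68850686, plus strand) is the feedback ubiquitin ligase whose element is shown above. It was at 26.1, 31.8 and 26.9 CPM in the knockdown and 28.0, 28.7 and 30.2 in the control. The control values lie inside the range of the knockdown values. Its log2 fold change was -0.03 (SE 0.14, edgeR adjusted p 0.924), and -0.14 without knockdown library 2. PPM1D, the phosphatase WIP1 that switches off the damage kinases, was among the lowest in level per length, at a mean of 3.58 TPM. Its CPM was 8.53, 11.9 and 8.88 in the knockdown and 8.93, 8.59 and 11.1 in the control, with a log2 fold change of 0.03 (SE 0.19, edgeR adjusted p 0.947) that was -0.14 without that library. CCNG1, cyclin G1, had a log2 fold change of 0.10, and FBXO22, a ubiquitin ligase subunit, one of 0.23, with edgeR adjusted p of 0.806 and 0.574. Without knockdown library 2, CCNG1 was at -0.06. For FBXO22 the value was -0.04 with GC and length trends removed.

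Neither of the tested death receptor genes passed. TNFRSF10B (ENSG00000120889; chromosome 8, 23020133 to 23069179, minus strand), which encodes the TRAIL receptor DR5, was at 93.0, 99.3 and 95.6 CPM in the knockdown and 88.9, 91.2 and 88.7 in the control. The groups did not overlap, but the distance was small, with a log2 fold change of 0.10 (SE 0.11, edgeR adjusted p 0.685) that was 0.06 without knockdown library 2. FAS, the receptor for FAS ligand, had the lowest level per length of the tested genes, at a mean of 3.39 TPM. Its CPM was 3.01, 4.30 and 2.28 in the knockdown and 3.74, 3.87 and 2.96 in the control, which overlap (log2 fold change -0.14, SE 0.27, edgeR adjusted p 0.829). Its log2 fold change ran from -0.43 without knockdown library 2 to 0.05 without knockdown library 3. EDA2R, the receptor for ectodysplasin A2, had 0 counts in all 6 libraries and was not tested. A count of 0 over the 6 libraries allows a level of up to 0.0135 CPM (3 counts), which covers counting error only.

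Of the 8 genes grouped here as growth arrest, 3 had libraries that did not overlap, all higher (37.5%, beside 13.4% of all genes). A fitted value above 0 was found for 7 (87.5%, beside 55.9% of all genes). Among these 7, PLK2 and CCNG2 were below 0 without knockdown library 2. Roles were assigned to order the text, and genes of a role are not replicates. TP53INP1 (ENSG00000164938; chromosome 8, 94925972 to 94949411, minus strand) encodes a stress protein that promotes arrest and autophagy. It was at 14.4, 19.2 and 14.9 CPM in the knockdown, and the controls were nearly equal at 11.04, 11.03 and 11.15. The log2 fold change was 0.55 (SE 0.16; edgeR p 0.00858 before and 0.167 after adjustment). It was 0.39 without knockdown library 2, and the unadjusted p was under 0.05 in all 16 alternative settings, as it was for PMAIP1. It was under 0.05 in 13 of 16 for CD82 and in 6 of 16 for BTG2, the 2 genes described next. These genes were picked by that p, and the settings refit the same libraries, so the counts are not separate evidence.

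CD82 (ENSG00000085117; chromosome 11, 44564427 to 44620363, plus strand) encodes a tetraspanin known as a suppressor of metastasis. Its CPM was 27.3, 32.3 and 31.3 in the knockdown and 21.1, 26.2 and 19.3 in the control, with control library 2 close to the lowest knockdown value. The log2 fold change was 0.45 (SE 0.16; edgeR p 0.0221 before and 0.23 after adjustment). BTG2 (ENSG00000159388; chromosome 1, 203305491 to 203309602, plus strand), an antiproliferative gene that recruits mRNA deadenylases, was at 20.7, 17.8 and 21.4 CPM against 14.8, 14.7 and 17.6. Knockdown library 2 and control library 3 nearly met. The log2 fold change was 0.35 (SE 0.15; edgeR p 0.0499 before and 0.303 after adjustment). Without knockdown library 2 the log2 fold changes were 0.39 for CD82 and 0.41 for BTG2.

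The other growth arrest genes overlapped between groups. PLK2, a polo-like kinase of the stress response, had the second highest level per length, at a mean of 120 TPM. It was at 122, 209 and 121 CPM in the knockdown and 162, 126 and 130 in the control. Knockdown library 2 alone was above the controls, and the log2 fold change of 0.11 (SE 0.22, edgeR adjusted p 0.835) became -0.21 without it. ZMAT3, an RNA-binding zinc finger protein, went from a log2 fold change of 0.36 to 0.11 without that library, and CCNG2, cyclin G2, from 0.21 to -0.07. PLK3, the related kinase, had a log2 fold change of 0.29. PHLDA3, an inhibitor of AKT, had the only value below 0 in this group, at -0.27, and an edgeR adjusted p of 0.472.

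**Figure D3:**
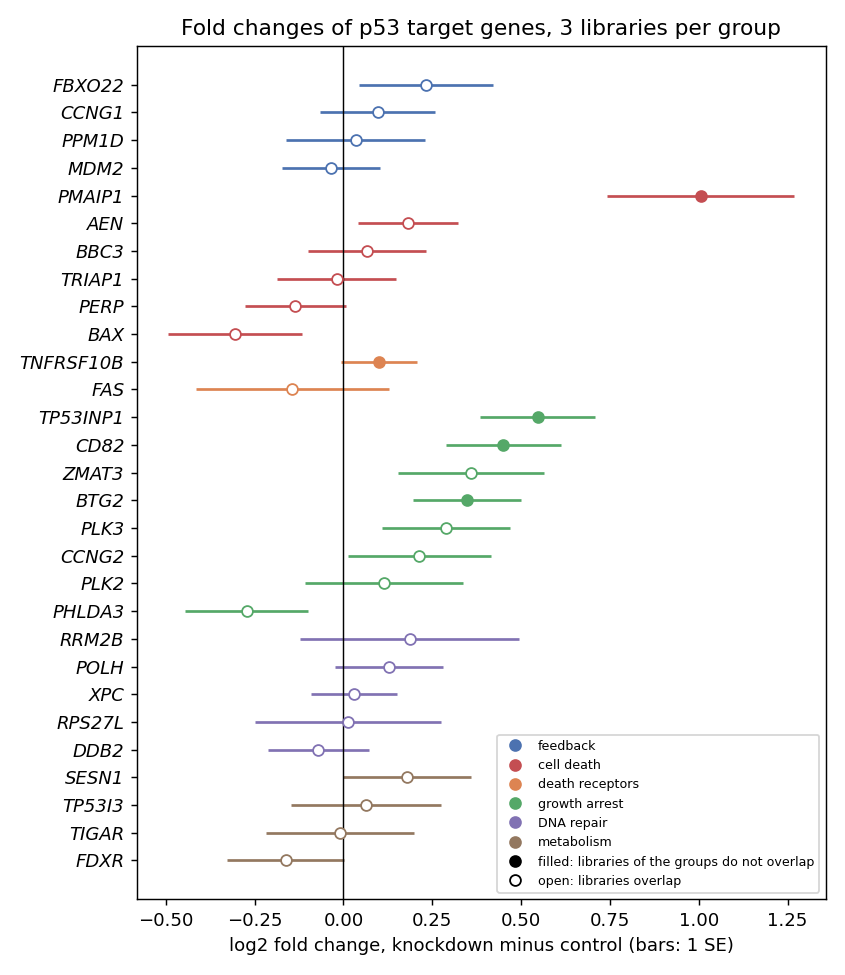
Log2 fold change of each tested p53 target gene, knockdown minus control, with bars of 1 standard error, grouped and coloured by role (filled points, libraries of the groups do not overlap). PMAIP1 lies near 1.01 and the other 28 genes between -0.31 and 0.55.

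All 5 DNA repair genes overlapped between groups, with log2 fold changes from -0.07 to 0.19. XPC, which recognises DNA lesions for nucleotide excision repair, was at 39.9, 43.4 and 42.9 CPM in the knockdown and 43.7, 39.1 and 40.8 in the control (log2 fold change 0.03, SE 0.12). DDB2, its partner in lesion recognition and the gene with the best element match, was at 21.7, 19.3 and 22.0 against 24.0, 20.3 and 21.8 CPM (log2 fold change -0.07, SE 0.14). The spread within each group was larger than the distance between the groups for both. POLH, the polymerase that copies past ultraviolet lesions, had a log2 fold change of 0.13. Without knockdown library 2 the values were -0.01 for XPC, -0.03 for DDB2 and 0.03 for POLH.

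RRM2B, a ribonucleotide reductase subunit that supplies nucleotides for repair, had the largest standard error of the 29 genes. Its CPM was 9.19, 24.4 and 14.3 in the knockdown against 14.5, 13.8 and 13.7 in the control. The knockdown libraries lay on both sides of a tight control, and the log2 fold change of 0.19 (SE 0.31) was -0.27 without library 2. RPS27L, a relative of a ribosomal protein that binds MDM2, was also highest in knockdown library 2, at 10.1, 21.8 and 15.3 CPM against 14.0, 17.4 and 15.3. Its log2 fold change was 0.01, and -0.31 without knockdown library 2. Of the 29 genes RRM2B had the lowest GC content, at 36.4%.

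Of the 4 tested metabolic targets 0 passed, and all 4 overlapped between groups. SESN1, a stress-induced brake on mTOR signalling, had a log2 fold change of 0.18, and TIGAR, a regulator of glycolysis, one of -0.01. TP53I3, a quinone reductase, had 0.06, and FDXR, ferredoxin reductase, -0.16. Without knockdown library 2 the values were 0.02 for SESN1, -0.22 for TIGAR, 0.19 for TP53I3 and -0.11 for FDXR. With all 6 libraries the edgeR adjusted p ran from 0.662 to 0.985. SPATA18, a gene of mitochondrial quality control, had 0, 6 and 2 counts in the knockdown and 0 in each control library, which is too few to test.

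The reads of 9 target genes may be mixed with those of a gene on the same stretch of chromosome. Exons overlapped for 7 of the 9. Whether strand was used in counting is not stated. PHLDA3 shared 598 exonic bases with AC096677.3 (mean 1.92 CPM) on its own strand, where strand would not separate them. For TNFRSF10B the partner RHOBTB2 was at a mean of 46.6 CPM with 67 shared exonic bases. For XPC the partner LSM3 was at 50.1 CPM with 318, and AC093495.1 was at 0.564 CPM with 1140. MDM2 shared 133 exonic bases with the carboxypeptidase M gene on the other strand, and FAS shared 380 with ACTA2. TP53INP1 lies within reach of NDUFAF6 but shared 0 exonic bases with it. PMAIP1, CD82, BTG2, BAX and BBC3 had no such partner at a mean of at least 0.5 CPM.

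Other targets of p53, from a list of 40 outside the 31, gave 39 matched genes, and SCO2, with 2 rows in the table, was left out. The list was chosen with earlier results of these data known, so its counts are a description. Of the 39 tested, GADD45A rose and 0 fell (1 of 39, beside 1.10% of all genes higher). At an unadjusted p under 0.05, 7 were higher (17.9%) and 1 lower, beside 9.77% and 6.71% of all genes. The lower one was SFN, at 169, 111 and 142 CPM in the knockdown and 171, 196 and 186 in the control. Its edgeR p was 0.0402 before and 0.281 after adjustment. The median log2 fold change of the 39 was 0.06, beside 0.05 over all tested genes. Values above 0 were found for 22 of 39 (56.4%), beside 55.9% of all genes. GADD45A, a stress and DNA damage gene, was at 115, 85.7 and 110 CPM in the knockdown and 40.1, 46.7 and 40.03 in the control (log2 fold change 1.29, SE 0.15, edgeR adjusted p 0.00839). It was past the test in 15 of 16 alternative settings, the exception being the replicate block, with an adjusted p of 0.0785.

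CDKN1A, which encodes the cyclin-dependent kinase inhibitor p21, was at 86.0, 76.0 and 82.4 CPM against 57.7, 62.5 and 60.6. The groups did not overlap, and the log2 fold change was 0.44 (SE 0.12, edgeR adjusted p 0.139). Of the 39 other targets, 10 had separate groups and were higher (25.6%) and 3 were lower (7.69%). The shares of all genes were 13.4% and 10.8%. SESN2, a sestrin gene that is also induced by other stresses, had a log2 fold change of 0.63 (SE 0.14, edgeR adjusted p 0.0931). GDF15, a secreted stress hormone, had 0.71 (SE 0.20, edgeR adjusted p 0.153). For GADD45A, CDKN1A, SESN2 and GDF15 knockdown library 2 was the lowest of the 3, whereas it was the highest for PMAIP1 and TP53INP1. With GC and length trends removed, 6 of the 39 passed, all higher, among them CDKN1A at an adjusted p of 0.0224, beside 2.10% of all genes called higher in that fit.

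Of 27 genes of the p53 family and its regulators 0 passed the edgeR test, and 0 passed with DESeq2. At an unadjusted edgeR p under 0.05, 1 was higher and 4 were lower, beside 9.77% and 6.71% of all genes. MDM4, the partner of MDM2 that masks p53, was uneven within both groups, at 8.80, 40.2 and 12.5 against 5.40, 25.8 and 11.4 CPM. Library 2 was the highest in each group, and the log2 fold change was 0.53 (SE 0.65, edgeR adjusted p 0.726) and -0.42 without knockdown library 2.

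TP63, a relative of p53 that can bind the same elements, was low. It was at 5.70, 4.47 and 4.79 CPM in the knockdown and 3.05, 2.32 and 3.38 in the control (log2 fold change 0.77, edgeR adjusted p 0.159). TP63 was the only 1 of the 27 with every knockdown library above every control library (3.70%, beside 13.4% of all genes). Of the regulators that restrain MDM2, CDKN2A had a log2 fold change of -0.41 and the ribosomal protein gene RPL11 one of -0.37, with edgeR adjusted p of 0.265 and 0.179. Among the 27 genes, 6 had every knockdown library below every control library (22.2%, beside 10.8% of all genes). The 6 were CDKN2A, RPL11, RPL5, CHEK2, KAT5 and KAT8.

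**Figure D4:**
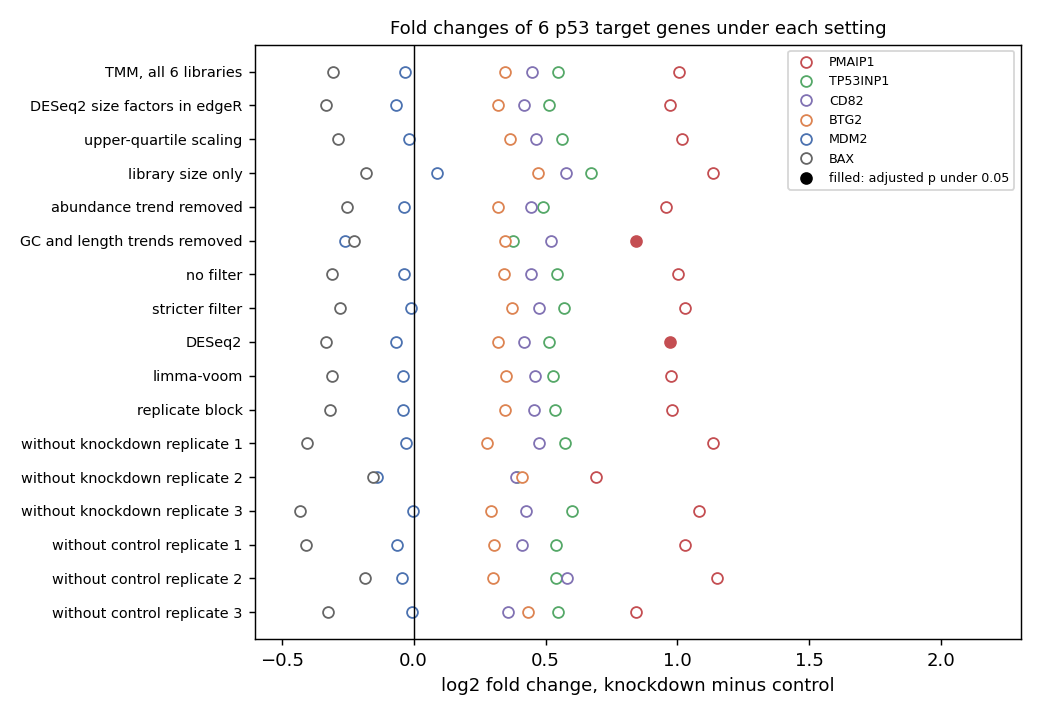
Log2 fold changes of 6 p53 target genes under the first fit and 16 alternative settings (filled points, adjusted p under 0.05). PMAIP1 stays between 0.69 and 1.15 and is filled only with DESeq2 and with GC and length trends removed, and MDM2 runs from -0.26 in the latter to 0.09 with library size only.

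PMAIP1, TP53INP1, CD82 and BTG2 were above 0, and BAX below 0, in all 16 alternatives, which refit the same libraries. Of the 29 genes, 13 kept the sign of their fold change in all 16. MDM2 had its lowest value, -0.26, when GC and length trends were removed.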

How the data were processed

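RNA of 6 PC9 libraries was sequenced on an Illumina platform, passed quality control, was mapped to a reference genome and counted per gene by the authors, per the labels' protocols. No source used here names the aligner or counter or says whether strand was used. The table deposited by the authors holds raw counts, TPM, and 6 columns of FPKM, which were not used. The submitters' processing notes name hg19, but 96.9% of 57836 genes shared with GENCODE release 29, all 31 target genes included, had GRCh38 coordinates, which are printed.

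Counts were filtered with filterByExpr (minimum 10 counts), scaled by TMM and tested with edgeR 4.0.16 (R 4.3.3), 3 libraries against 3, adjusted by Benjamini-Hochberg over 19040 genes at 0.05. Standard errors come from the fold change and its F statistic. TPM served for levels between genes. The members and lists were chosen with earlier results of these data known. All 31 members are accounted for. Full values are given for those with separated libraries at an unadjusted p under 0.05, 3 of highest and lowest TPM and core targets, and a few of the other lists. CCNG2, ZMAT3, RRM2B, RPS27L, XPC, DDB2 and TNFRSF10B values were added after they were seen, as were the promoter search and GC values. The fit was tested on simulated data. Alternatives used DESeq2 1.42.0 and limma 3.58.1, and figures matplotlib 3.10.9. Libraries within a group differed beyond sampling noise (chi-square over df of at least 33.6), so each counted once. Values of 1 regulator and 1 marker gene are not reported here.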

Additional observations from a re-analysis of the deposited data

How the results depend on the processing

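PMAIP1 alone among the 31 changed its side of the threshold, so the count of target genes past the test was 1 with DESeq2 and 1 with GC and length trends removed, a setting added after seeing the data, and 0 under the others. Over all genes 223 passed, against 120 with the abundance trend removed, 657 with GC and length trends removed, 147 with no filter, 143 with a stricter filter of 50 counts, 701 with DESeq2 and 64 to 114 when 1 library was left out. Higher and lower calls were 209 and 14, against 483 and 218 with DESeq2 and 399 and 258 once GC and length trends were removed. The replicate block gave 34, but replicate numbers showed no pairing (correlations of deviations 0.01, -0.07 and -0.02). Of other p53 targets 2 passed with library size only, 6 with GC and length trends removed, 2 with DESeq2 and 0 with the replicate block. The median of the 29 targets was 0.296 on deposited TPM as log2(TPM + 1), where that of all genes was 0.208, and -0.026 to 0.112 with 1 library left out. The median of other targets was 0.033 with DESeq2 size factors, 0.185 with library size only, 0.026 with the abundance trend removed, 0.014 with GC and length trends removed, 0.088 with the stricter filter, 0.033 with DESeq2 and -0.018 to 0.091 with 1 library left out. That of regulators was 0.096 with library size only and -0.136 to 0.110 with 1 library left out. Library size only moved the median of all genes to 0.175. CCNG2 turned to -0.070 without knockdown library 2 (up to 0.319 with another left out), and FBXO22 to -0.040 with GC and length trends removed. Another 40 sign changes were in targets whose fold change was under its standard error. For all these shifts the cause was not tested. SPATA18 and EDA2R had too few counts to be tested.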

Other observations

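The deposited TPM and the TMM-scaled counts gave different pictures of the same genes. On log2(TPM + 1), 25 of 29 target genes were higher in the knockdown and their median difference was 0.30, where all tested genes had a median of 0.21 and 78.5% were above 0. On TMM-scaled counts 20 of 29 were above 0. On counts scaled by library size only, 24 of 29 were above 0. The median log2 fold change was then 0.222, beside 0.175 over all genes. MDM2 was at 13.02 ± 0.780 TPM in the knockdown and 9.37 ± 2.46 in the control (SD, n = 3), while its CPM was 28.3 ± 3.07 and 28.97 ± 1.12. CCNG1 was at 53.3 ± 19.0 against 35.2 ± 1.86 TPM, while its CPM was 35.7 ± 5.99 and 33.4 ± 3.57. The reason for the difference between the units was not tested.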
